A study of Mus musculus with 9 samples.

Results

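The cadherins and protocadherins of the fetal mouse gonad were taken as all genes whose mouse symbol is Cdh followed by a number, starts with Pcdh or Dchs, or is Fat1, Fat2, Fat3 or Fat4, with Cdh5 left out. Of 98 genes with such a symbol in the GENCODE M21 annotation of GRCm38, 51 were among the 15300 genes of the authors' deposited tables. Gonads were separated from the mesonephros of C57BL/6 fetuses at E13.5 (the number counts embryonic days), and their RNA was sequenced in 3 groups of 3 samples. XX-WT was control ovary (XX Sox9flox/flox), XY-WT was control testis (XY Sox9flox/flox), and XY-KO was testis of XY AMH-Cre; Sox9flox/flox fetuses. The floxed Sox9 alleles are thus shared by all 3 groups, and Cre, driven by the promoter of Amh, is active in Sertoli cells, so that other cells of the gonad keep their floxed copies. The study asks how SOX9, the transcription factor that directs Sertoli cell differentiation, acts on its target genes in the fetal testis. How many fetuses went into a sample is not given in the labels, and p-values therefore measure only the spread between these samples, which may be technical. The values below are those of groups and comparisons, as no values of single samples were used, and sequencing depth per sample is unknown.

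Cadherins are membrane proteins whose extracellular repeats bind calcium and, in most classes, a cadherin on the neighbouring cell. The type I and type II classical cadherins are tied to actin through beta-catenin and alpha-catenin at adherens junctions, while protocadherins adhere weakly and are best known for cell recognition in the nervous system. FAT and Dachsous cadherins are very large proteins, of which FAT4 and DCHS1 bind each other across cells and set planar polarity and growth. In the fetal gonad, cadherin junctions hold supporting cells to each other and to germ cells while testis cords form.

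Fold changes, mean levels and p-values are those of the authors' deposited tables, made with limma, and a gene is called where its adjusted p, by Benjamini-Hochberg over all genes of a comparison, is under 0.05. Levels are on the log2 scale of CPM, a measure of reads per gene relative to all reads of a sample, where 0 stands for 1 CPM, and are derived for each group from the authors' mean and fold changes. That this scale is log2 CPM was inferred from the values, since the sources used here do not name it. Sox9 itself was lower in XY-KO than in XY-WT (log2 fold change -2.76, SE 0.172, adjusted p 8.93e-07) and lower still in XX-WT (-4.47, SE 0.216, adjusted p 2.06e-09). Of 15 Sertoli cell markers, 14 were lower in XX-WT than in XY-WT and 10 were lower in XY-KO. Both counts include Sox9, the deleted gene. The summed level of the 15 was 725 CPM in XY-WT, 36.2 CPM in XX-WT and 317 CPM in XY-KO. Of them 7 stood under 1 CPM in XX-WT and 1, Sox10, in XY-KO. All 10 pre-granulosa markers were higher in XX-WT than in XY-WT, none passed between XY-KO and XY-WT (2 at an unadjusted p under 0.05), and 3 of them (Foxl2, Irx3 and Sp5) stood under 1 CPM in both XY groups. With the trend of fold change on transcript GC content and length removed, 1 of the 10, Rspo1, was higher in XY-KO than in XY-WT (1.04, adjusted p 0.0156), against 0.69 as deposited (adjusted p 0.103). All 6 measured fetal Leydig cell markers were lower in XX-WT than in XY-WT, and none passed between XY-KO and XY-WT (1 at an unadjusted p under 0.05). Of 9 meiotic germ cell markers 7, of 6 coelomic epithelium markers 5 and of 5 macrophage markers 1 were higher and none lower in XX-WT than in XY-WT, and none of these 3 lists had a gene that passed between XY-KO and XY-WT (0, 1 and 0 at an unadjusted p under 0.05). In such bulk samples, fewer cells of a type and less RNA per cell cannot be told apart.

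Between control ovary and control testis, 15 of the 51 members differed, 6 higher and 9 lower in XX-WT, where 23.3% of all genes were called (10.9% higher and 12.4% lower). The type II cadherins Cdh6, Cdh9, Cdh12 and Cdh20, together with Fat4 and Pcdh18, were the 6 higher in the ovary. The 9 higher in the testis were Cdh11, Cdh23, Fat1, Fat3, Pcdh8, Pcdh9, Pcdh10, Pcdh12 and Pcdhgc4. Between XY-KO and control testis 2 members differed, with Fat1 lower and Pcdh9 higher in XY-KO, where 2.27% of all genes were called (0.699% higher and 1.57% lower). Between XY-KO and XX-WT 16 members differed, 11 higher and 5 lower in XY-KO, where 18.3% of all genes were called (9.16% higher and 9.11% lower). With the same trend removed, the split over all genes in XY-KO against XY-WT went from 107 higher and 240 lower to 116 higher and 142 lower. The members kept 1 higher and 1 lower call under that setting.

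Of the type I classical cadherins, none passed between the ovary and the testis, and none between XY-KO and XY-WT, although 2 and 1 of 4 had an unadjusted p under 0.05. Cdh15 was not among the tables' genes. Cdh2, N-cadherin, an adhesion molecule of Sertoli and germ cells, had a level of 5.71 in XY-WT, 6.01 in XX-WT and 5.59 in XY-KO. It was lower in XY-KO than in XX-WT (log2 fold change -0.41, SE 0.121, adjusted p 0.0254), while its difference of 0.29 between the control gonads had an adjusted p of 0.0937. The ovary thus stood highest, and the 2 kinds of testis were 0.12 apart (95% interval of XY-KO against XY-WT -0.38 to 0.14).

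Cdh1, E-cadherin, found on epithelia and on fetal germ cells, had a level of 3.87 in XY-WT, 3.59 in XX-WT and 3.16 in XY-KO. Its difference between XY-KO and XY-WT was -0.71 (SE 0.272), with an unadjusted p of 0.019 and an adjusted p of 0.177. Germ cell markers were also at their lowest in XY-KO. The summed level of the 11 measured markers was 443 CPM in XY-WT, 639 CPM in XX-WT and 357 CPM in XY-KO, none stood under 1 CPM, and 1 of them, Utf1, was called lower in XY-KO than in XY-WT (-1.15, adjusted p 0.0277). Once the trend on GC and length was taken out, Utf1 had -0.64 and no longer passed (adjusted p 0.25). Their part in the value of Cdh1 was not tested. Cdh3, P-cadherin, had levels of 4.56, 4.48 and 4.77 in XY-WT, XX-WT and XY-KO, and its difference between the control gonads was -0.08 (95% interval -0.40 to 0.24). Cdh4, R-cadherin, had levels of 1.40, 0.49 and 1.11 in the same order, and its difference of -0.92 between XX-WT and XY-WT did not pass (SE 0.351, adjusted p 0.0726).

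The type II cadherins held the widest sex differences among the Cdh genes. Of 9 measured, 4 were higher and 1 lower in XX-WT than in XY-WT (55.6% called), where 23.3% of all genes were called. Their median log2 fold change was 0.92, where the median over all genes was 0.00. Of the 4 higher, Cdh9, Cdh12 and Cdh20 had levels under 1 CPM in XY-WT. With the authors' filter on low values unknown, such genes may have been tested only because of their level in the ovary. The share called and the median may depend on that. Cdh9, known mainly from kidney epithelium and neurons, had a level of 0.75 in XX-WT, -2.22 in XY-WT and -1.55 in XY-KO. It was 7.87-fold higher in the ovary than in control testis (95% interval 3.65 to 17.0, adjusted p 5.76e-04) and lower in XY-KO than in XX-WT (log2 fold change -2.31, SE 0.448, adjusted p 0.00164). Its change of 0.67 between XY-KO and XY-WT did not pass (SE 0.621, adjusted p 0.599), so both testes stood below 1 CPM and the ovary above it.

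Cdh12, a cadherin of the brain, followed the same order of ovary above testis, with levels of 0.48 in XX-WT, -2.02 in XY-WT and -2.30 in XY-KO. Its log2 fold change was 2.50 in XX-WT against XY-WT (SE 0.553, adjusted p 0.00371) and -2.79 in XY-KO against XX-WT (SE 0.561, adjusted p 0.0022), and -0.29 between the 2 kinds of testis (adjusted p 0.864). Cdh20 had levels of -0.12 in XX-WT, -2.15 in XY-WT and -0.85 in XY-KO. The ovary was higher than control testis by 2.04 (SE 0.532, adjusted p 0.0112), and XY-KO lay between the control groups and passed against neither (1.30 above XY-WT, adjusted p 0.232, and 0.74 below XX-WT, adjusted p 0.274). Cdh9, Cdh12 and Cdh20 were the 3 lowest of the 51 members per kilobase of transcript, and the fold of a gene near 1 CPM depends on the offset the authors used before taking logs, which is not given in the sources used here.

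Cdh6, K-cadherin, an adhesion molecule of nephron precursors, had levels of 3.15 in XX-WT, 2.23 in XY-WT and 2.87 in XY-KO. It was higher in the ovary than in control testis (0.92, SE 0.249, adjusted p 0.014), and its 0.64 in XY-KO against XY-WT (SE 0.258, adjusted p 0.197) and -0.27 in XY-KO against XX-WT (adjusted p 0.459) did not pass. Mesonephric markers differed between the same groups. Of 5 measured, 4 were higher and 1, Lhx1, lower in XX-WT than in XY-WT, with summed levels of 209 CPM in XX-WT, 72.1 CPM in XY-WT and 93.1 CPM in XY-KO. Pax2 stood under 1 CPM in both XY groups and Ret in XY-KO. Their part in the values of Cdh6 and Cdh9 was not tested.

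Cdh11, OB-cadherin, the classical cadherin of mesenchymal cells, ran the other way and was the member with the highest level per kilobase. Its level was 8.12 in XY-WT, 7.95 in XY-KO and 7.22 in XX-WT. It was lower in the ovary than in control testis (-0.90, SE 0.194, adjusted p 0.00306) and higher in XY-KO than in XX-WT (0.73, SE 0.197, adjusted p 0.0161), while XY-KO and XY-WT differed by -0.17 (95% interval -0.58 to 0.25). Interstitial cell markers followed the same order, with 7 of 8 lower in XX-WT than in XY-WT and summed levels of 736 CPM in XY-WT, 668 CPM in XY-KO and 276 CPM in XX-WT. Unlike Cdh11, 2 of the 8 were also called lower in XY-KO than in XY-WT, where 2.27% of all genes were called. With the GC and length trend removed, 2 were still lower. Gli1 was under 1 CPM in XX-WT. Their part in the value of Cdh11 was not tested.

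The other 4 type II cadherins did not pass in any comparison. Cdh7 had levels of 0.46 in XX-WT and -0.91 in XY-WT, a difference of 1.37 with an adjusted p of 0.124. For Cdh8 the difference was -0.78 (adjusted p 0.414), for Cdh10 it was 0.31 (adjusted p 0.506), and for Cdh24 it was -0.57 (adjusted p 0.207). In XY-KO against XY-WT, Cdh10 had 0.69 (unadjusted p 0.0373, adjusted p 0.232). Wide intervals went with these low levels, for example -2.15 to 0.58 for Cdh8 in XX-WT against XY-WT.

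**Figure D1:**
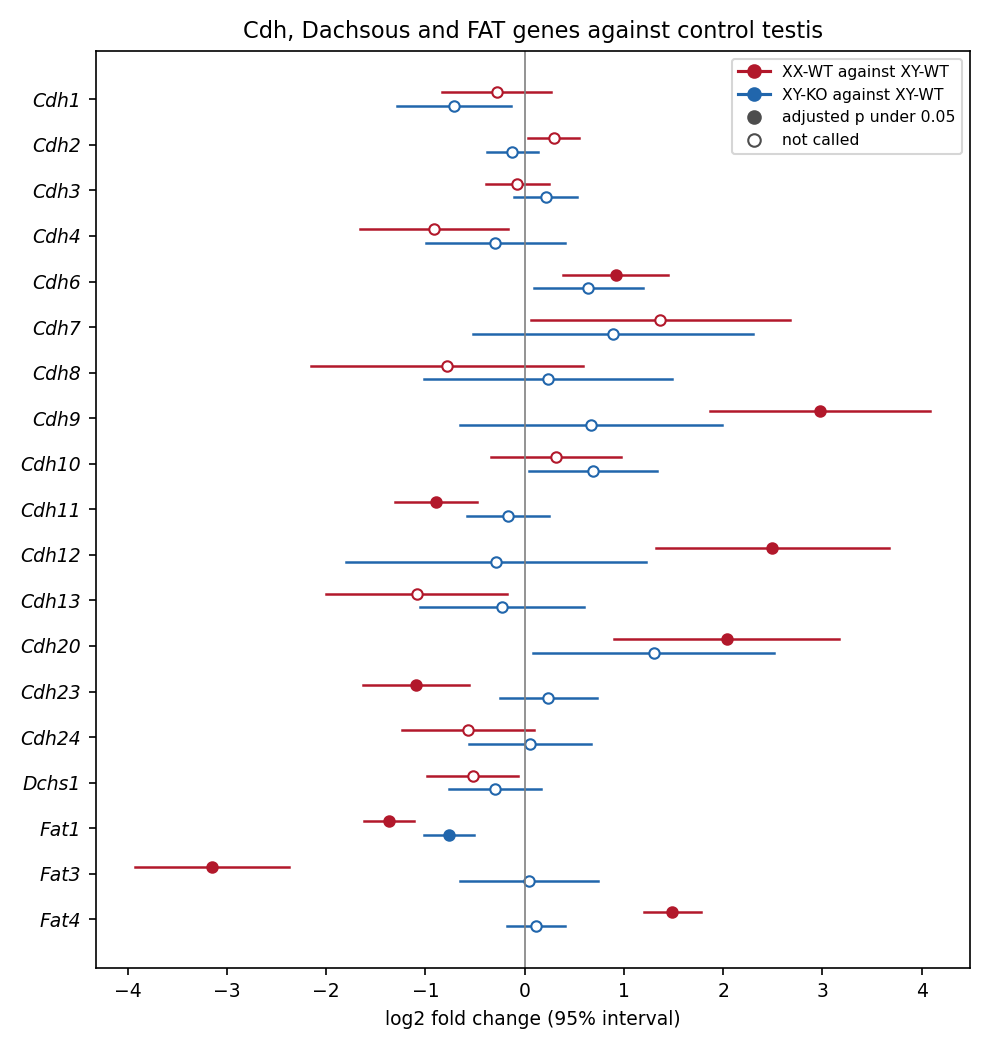
Log2 fold changes (horizontal axis) of the 15 Cdh, 1 Dachsous and 3 FAT genes (vertical axis) in XX-WT (red) and XY-KO (blue), each against XY-WT, from the authors' limma tables, with bars for 95% intervals and filled points for an adjusted p under 0.05. Fat3 lies at -3.15 and Cdh9 at 2.98 in XX-WT, and Fat1 at -0.76 is the called gene in XY-KO.

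The Cdh genes also differed by chromosome, a grouping noticed after the values were seen and so given as a description only. Cdh6, Cdh9, Cdh10 and Cdh12 lie on chromosome 15, and all 4 had positive log2 fold changes in XX-WT against XY-WT, from 0.31 to 2.98, with 3 called. Among all 552 genes measured on that chromosome, 47.3% were positive and 10.7% were called higher. Cdh1, Cdh3, Cdh8, Cdh11 and Cdh13 lie on chromosome 8, and all 5 were negative as deposited, from -1.09 to -0.08, with 1 called, although Cdh3 had 0.02 once the GC and length trend was taken out. On that chromosome 43.3% of 799 genes were positive. Cdh7 and Cdh20 on chromosome 1 were both positive (1.37 and 2.04), where 55.7% of 935 genes were. Cdh6 spans chr15:13028701-13173675, Cdh9 chr15:16728756-16857094, Cdh10 chr15:18818947-19014236 and Cdh12 chr15:20449265-21589533 (GRCm38), so the 4 genes follow each other in that order.

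**Figure D2:**
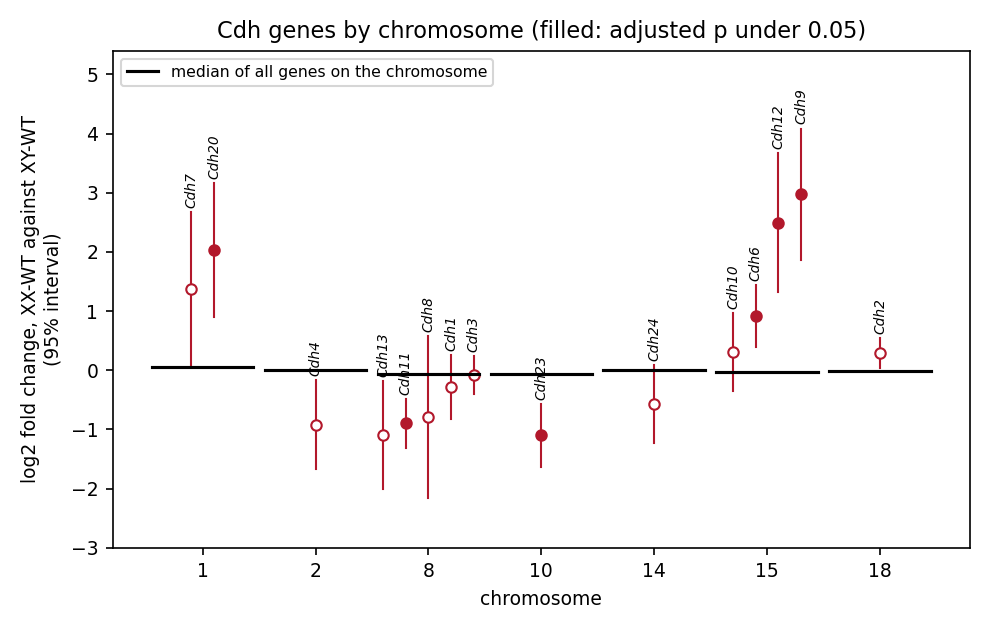
Log2 fold change in XX-WT against XY-WT (vertical axis) of the 15 Cdh genes by chromosome (horizontal axis), with 95% intervals, filled points for an adjusted p under 0.05 and a black line for the median of all genes on that chromosome. The 4 genes of chromosome 15 and the 2 of chromosome 1 lie above 0, and the 5 of chromosome 8 lie below it, although Cdh3 turned to 0.02 with the GC and length trend removed.

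Of the remaining Cdh genes, Cdh23 and Cdh13 were measured. Cdh23, a long cadherin known from the tip links of hair cells of the inner ear, had levels of 4.74 in XY-WT, 4.98 in XY-KO and 3.64 in XX-WT. It was lower in the ovary than in control testis (-1.10, SE 0.25, adjusted p 0.00451) and higher in XY-KO than in XX-WT (1.34, SE 0.247, adjusted p 0.00113). Both kinds of testis stood above the ovary and differed from each other by 0.24 (95% interval -0.25 to 0.72). Vsir, on the opposite strand within Cdh23, shares 0 nt of its exons and had 0.98 in XX-WT against XY-WT. Cdh13, T-cadherin, which is held to the membrane by a lipid anchor, had levels of 1.07, -0.02 and 0.83 in XY-WT, XX-WT and XY-KO, and its difference of -1.09 between the control gonads did not pass (SE 0.427, adjusted p 0.0791).

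Fat1, Fat4 and Fat3 had the 3 lowest adjusted p-values of all members in XX-WT against XY-WT, and Fat4 ran opposite to the other two. Fat4 (chr3:38886940-39011985), the receptor that pairs with DCHS1, had levels of 8.24 in XX-WT, 6.75 in XY-WT and 6.87 in XY-KO. It was 2.81-fold higher in the ovary than in control testis (95% interval 2.30 to 3.42, adjusted p 8.58e-07) and lower in XY-KO than in XX-WT (log2 fold change -1.37, SE 0.136, adjusted p 3.14e-06). XY-KO and XY-WT differed by 0.12 (95% interval -0.17 to 0.41), so the ovary stood apart from both testes. An antisense gene, C230034O21Rik, shares 1209 of 17165 nt of the Fat4 exons, and its own log2 fold change in XX-WT was 1.32, so reads in the shared stretch cannot be assigned without strand.

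Fat3 (chr9:15910189-16501285), known for shaping neurons of the retina, had levels of 7.21 in XY-WT, 7.26 in XY-KO and 4.06 in XX-WT. Control testis was 8.89-fold above the ovary (95% interval 5.20 to 15.2, adjusted p 1.12e-05) and XY-KO was 9.16-fold above it (95% interval 5.33 to 15.7, adjusted p 1.45e-05). Between XY-KO and XY-WT the log2 difference was 0.04 (95% interval -0.65 to 0.74, adjusted p 0.96). The ovary was thus the low group, and the 2 kinds of testis could not be separated.

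Fat1 (chr8:44935447-45052257), which links junctions to actin and to growth control, was graded over the 3 groups, with levels of 8.78 in XY-WT, 8.02 in XY-KO and 7.41 in XX-WT. It was lower in XX-WT than in XY-WT (log2 fold change -1.37, SE 0.118, adjusted p 5.41e-07). It was also lower in XY-KO than in XY-WT (-0.76, SE 0.119, adjusted p 0.00216) and higher in XY-KO than in XX-WT (0.61, SE 0.12, adjusted p 0.0019). XY-KO therefore lay between the control groups and differed from each. Of the 51 members, Fat1 and Pcdh9 were the 2 called in all 3 comparisons, as were 113 of all genes. The antisense gene Gm2366 shares 487 of 15655 nt of the Fat1 exons and had -1.41, -0.60 and 0.81 in the same 3 comparisons (XX-WT against XY-WT, XY-KO against XY-WT, XY-KO against XX-WT).

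Dchs1, the ligand of FAT4, did not pass in any comparison, with levels of 5.28 in XY-WT, 4.98 in XY-KO and 4.75 in XX-WT. Its difference between XX-WT and XY-WT was -0.53 (SE 0.217, adjusted p 0.0949). Of 11 genes that act with FAT and Dachsous cadherins or in the growth pathway below them, 1 passed in XX-WT against XY-WT and none in XY-KO against XY-WT (1 at an unadjusted p under 0.05). The gene that passed was Frmd6, an upstream regulator of Hippo signalling, at 1.19 in XX-WT against XY-WT (adjusted p 7.83e-05) and -1.10 in XY-KO against XX-WT (adjusted p 1.85e-04). Its levels were 5.23 in XX-WT, 4.04 in XY-WT and 4.13 in XY-KO, with the ovary highest as for Fat4. Fjx1, a kinase that modifies FAT and Dachsous repeats, had -0.66 (adjusted p 0.144). The median of the list was 0.10 in XX-WT against XY-WT, and 9.09% of it was called, where 23.3% of all genes were.

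Catenins, nectins and other partners at the junction were measured for 17 of 18 listed genes. Ctnnb1, beta-catenin, had a level of 8.69 in XY-WT, 8.69 in XX-WT and 8.72 in XY-KO, and its 95% interval in XX-WT against XY-WT was -0.32 to 0.34. Against XY-WT, 4 (23.5%) were lower in XX-WT, where 23.3% of all genes were called in either direction, and 2 were lower in XY-KO. None was higher, and the medians were 0.01 and -0.12. Ctnna2, the alpha-catenin of neurons, had levels of 3.30 in XY-WT, 2.55 in XY-KO and 1.13 in XX-WT, and was lower in XX-WT (-2.17, SE 0.219, adjusted p 2.99e-06) and in XY-KO (-0.76, SE 0.178, adjusted p 0.0361). Nectin1, an adhesion molecule of the immunoglobulin family, was lower in XX-WT (-0.91, adjusted p 0.00314) and in XY-KO (-1.06, adjusted p 0.0111). Ctnna3 and Jup (plakoglobin) were lower in XX-WT (-1.57 and -0.77, adjusted p 0.00263 and 0.00954) and had 0.42 and -0.06 in XY-KO. Once the GC and length trend was taken out, no gene of the list passed in XY-KO against XY-WT (adjusted p 0.0637 for Ctnna2 and 0.0645 for Nectin1), and Jup no longer passed in XX-WT (adjusted p 0.0913). Under that setting Arvcf and Pkp4, catenins of the p120 family, were higher in XX-WT (0.78 and 0.40, adjusted p 0.0201 and 0.019), against 0.50 and 0.31 as deposited (adjusted p 0.12 and 0.065).

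The protocadherins outside the gene clusters comprised 4 of the delta-1 kind, 5 of the delta-2 kind and 3 others, all in the tables. Of these 12, 1 was higher and 4 were lower in XX-WT than in XY-WT, and 1 was higher in XY-KO than in XY-WT. In XY-KO against XX-WT 4 were higher and 1 lower. These are 41.7%, 8.33% and 41.7% in the 3 comparisons, where 23.3%, 2.27% and 18.3% of all genes were called. RefSeq promoter windows (GRCm38.p6) of 300 nt, from 250 before the start to 50 after it, were found for 21 of the 51 members. They were searched on both strands for AACAAT and ACAAAG, spellings of the short core that SOX proteins bind. The windows of the 4 called delta protocadherins are shown because they are the genes whose changes are described next, and capitals mark each match.
Pcdh9, chr14:93890630-93890929, minus strand: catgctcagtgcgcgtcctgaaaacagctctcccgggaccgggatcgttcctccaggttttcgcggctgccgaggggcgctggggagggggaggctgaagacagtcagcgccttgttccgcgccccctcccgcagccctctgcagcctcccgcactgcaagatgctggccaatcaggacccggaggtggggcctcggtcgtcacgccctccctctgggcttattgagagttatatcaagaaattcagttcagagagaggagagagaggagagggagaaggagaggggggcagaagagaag
Pcdh8, chr14:79771263-79771562, minus strand: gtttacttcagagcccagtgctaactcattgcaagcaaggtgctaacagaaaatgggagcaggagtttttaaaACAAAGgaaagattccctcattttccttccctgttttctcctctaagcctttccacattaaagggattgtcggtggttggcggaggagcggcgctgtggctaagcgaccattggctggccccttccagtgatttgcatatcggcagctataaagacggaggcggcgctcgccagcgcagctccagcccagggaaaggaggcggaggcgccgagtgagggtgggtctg
Pcdh10, chr3:45378148-45378447, plus strand: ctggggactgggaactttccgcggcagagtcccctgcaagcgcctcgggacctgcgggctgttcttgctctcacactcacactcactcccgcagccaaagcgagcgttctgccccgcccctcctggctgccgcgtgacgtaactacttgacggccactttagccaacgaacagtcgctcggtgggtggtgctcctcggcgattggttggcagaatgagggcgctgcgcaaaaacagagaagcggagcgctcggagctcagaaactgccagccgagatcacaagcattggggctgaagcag
Pcdh18, chr3:49757267-49757566, minus strand: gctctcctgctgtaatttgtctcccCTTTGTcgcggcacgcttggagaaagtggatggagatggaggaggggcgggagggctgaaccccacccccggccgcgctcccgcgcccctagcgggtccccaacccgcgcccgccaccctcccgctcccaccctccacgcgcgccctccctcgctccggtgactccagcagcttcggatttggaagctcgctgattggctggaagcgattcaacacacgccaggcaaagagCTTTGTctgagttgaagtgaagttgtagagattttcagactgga
The window of Pcdh8 held 1 match, ACAAAG at position -177 from the start, and that of Pcdh18 held 2, with ACAAAG read on the opposite strand at -225 and 7. No match lies in the windows of Pcdh9 and Pcdh10. Over all 32851 windows of that length, 10.7% held AACAAT, 18.7% held ACAAAG and 27.0% held either. Of the 21 members 5 had a window that held either. The former shares count windows and the latter counts genes, which can have several windows (32851 windows of 27025 genes). The 4 windows had a GC content of 54.3% to 63.0% and 14 to 24 CpG sites, where the medians over all windows were 52.7% and 7.

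Pcdh9, a delta-1 protocadherin expressed widely in the brain, was the 1 member called higher in XY-KO than in XY-WT. Its level was 4.93 in XY-KO, 4.03 in XY-WT and 2.50 in XX-WT. It was higher in XY-KO than in XY-WT (0.90, SE 0.176, adjusted p 0.0124) and than in XX-WT (2.44, SE 0.207, adjusted p 6.28e-07), and lower in XX-WT than in XY-WT (-1.54, SE 0.216, adjusted p 7.79e-05). XY-KO thus lay above control testis, on the side away from the ovary. Among all genes, 46 were called higher in XY-KO than in both controls, and Pcdh9 was the 1 member among them. Of 4 measured skeletal muscle markers, 1, Myh8, was higher in XY-KO than in XY-WT. In XX-WT 2 of the 4 were higher than in XY-WT, and none was called between XY-KO and XX-WT. Their summed levels were 18.0 CPM in XY-WT, 45.2 CPM in XX-WT and 42.8 CPM in XY-KO, with Myh3 under 1 CPM in XY-WT. The part of these markers in the value of Pcdh9 was not tested.

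Pcdh8, the paraxial protocadherin of segmenting mesoderm, had levels of 0.81 in XY-WT, 1.23 in XY-KO and -1.84 in XX-WT. It was lower in the ovary than in control testis (-2.65, SE 0.598, adjusted p 0.0042) and higher in XY-KO than in XX-WT (3.07, SE 0.58, adjusted p 0.00132). Pcdh10, known from axon growth in the forebrain, showed the same order of groups, with levels of 1.76, 2.02 and 0.62 in XY-WT, XY-KO and XX-WT. Its differences were -1.13 in XX-WT against XY-WT (SE 0.362, adjusted p 0.0333) and 1.40 in XY-KO against XX-WT (SE 0.345, adjusted p 0.00923). Neither gene passed between the 2 kinds of testis (0.42, adjusted p 0.566, and 0.26, adjusted p 0.686).

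Pcdh18 was the delta protocadherin of the opposite direction and the member with the next highest level per kilobase after Cdh11. Its levels were 7.55 in XX-WT, 6.92 in XY-WT and 7.02 in XY-KO. The ovary was higher than control testis (0.63, SE 0.164, adjusted p 0.011), and XY-KO was lower than the ovary (-0.52, SE 0.166, adjusted p 0.0381). Against XY-WT, XY-KO had 0.10 (adjusted p 0.783). Pcdh17 had levels of 4.78, 4.44 and 4.74 in XY-WT, XX-WT and XY-KO, and its difference of -0.34 between the control gonads had an adjusted p of 0.0795, which became 0.0268 (at -0.44) with the GC and length trend removed. Among the delta-1 genes that did not pass, Pcdh7 had 0.50 in XX-WT against XY-WT (adjusted p 0.0541) and Pcdh11x, on the X chromosome, had 0.57 (adjusted p 0.0664) and, in XY-KO against XY-WT, 0.61 (adjusted p 0.149). Pcdh1 and Pcdh19, the latter also on the X chromosome, had 0.02 and -0.02 in XX-WT against XY-WT.

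Pcdh12, a protocadherin of endothelial cells, had levels of 2.41 in XY-WT, 2.36 in XY-KO and 1.57 in XX-WT. It was lower in the ovary than in control testis (-0.84, SE 0.244, adjusted p 0.0205) and higher in XY-KO than in XX-WT (0.79, SE 0.244, adjusted p 0.0337), and the 2 testes differed by -0.05 (95% interval -0.53 to 0.42). Of 10 endothelial markers, 3 (2 with the GC and length trend removed) were lower and 1, Pecam1, higher in XX-WT than in XY-WT, with summed levels of 205 CPM in XY-WT, 183 CPM in XX-WT and 199 CPM in XY-KO and none under 1 CPM. Cdh5, the endothelial cadherin, had -0.60 (adjusted p 0.0163). Their part in the value of Pcdh12 was not tested. Pcdh15, the tip-link partner of Cdh23, had 0.04 in XX-WT against XY-WT (adjusted p 0.948), whereas Cdh23 had -1.10. Pcdh20 had 1.05 (adjusted p 0.109).

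The clustered protocadherins lie in 3 neighbouring arrays on chromosome 18, in which each neuron uses its own set of variable exons. Of 14 alpha, 22 beta and 22 gamma genes in the annotation, 1, 18 and 1 were in the tables. The alpha entry carries the symbol Pcdha11 and shares 2860 of its 5359 exon nt with each of the other alpha genes, and the gamma entry, Pcdhgc4, shares up to 2119 of 5596 nt with the other gamma genes. The sources used here do not say whether each entry stands for its whole cluster. Pcdhgc4 had levels of 7.24 in XY-WT, 6.83 in XY-KO and 6.50 in XX-WT, and was lower in the ovary than in control testis (-0.74, SE 0.131, adjusted p 6.49e-04). Its differences of -0.41 in XY-KO against XY-WT (adjusted p 0.119) and 0.33 in XY-KO against XX-WT (adjusted p 0.109) did not pass. With p-values adjusted over the 3 comparisons together, the former had an adjusted p of 0.0485. In that setting the many genes called in the 2 comparisons with the ovary loosen the limit for XY-KO against XY-WT. Pcdha11 had -0.07, 0.16 and 0.23 in the 3 comparisons.

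None of the 18 beta protocadherins passed between XX-WT and XY-WT or between XY-KO and XY-WT, where 0 and 5 had an unadjusted p under 0.05. Between XY-KO and XX-WT 3 (16.7%) were called, all higher in XY-KO: Pcdhb18, Pcdhb19 and Pcdhb21. In that comparison 17.1% of genes within the range of mean levels of the beta genes were called in either direction. Of all genes 18.3% were, with 9.16% higher. Pcdhb18 had levels of 2.42 in XY-WT, 2.41 in XX-WT and 3.20 in XY-KO, with 0.79 in XY-KO against XX-WT (SE 0.214, adjusted p 0.0168) and 0.78 against XY-WT (SE 0.221, adjusted p 0.0809). Pcdhb19 had levels of 2.64, 2.68 and 3.38 in the same order, with 0.70 against XX-WT (SE 0.182, adjusted p 0.0126) and 0.75 against XY-WT (SE 0.19, adjusted p 0.0541). For both genes the control groups were 0.01 and 0.04 apart, and XY-KO stood above them. Adjusted over the 3 comparisons together, with the same looser limit, the difference from XY-WT passed for both. The adjusted p was then 0.0262 for Pcdhb18 and 0.0144 for Pcdhb19. Pcdhb21 had levels of 1.59, 1.45 and 2.37, with 0.92 against XX-WT (SE 0.294, adjusted p 0.0383) and 0.78 against XY-WT (SE 0.304, adjusted p 0.184). Among the beta genes called in no comparison, the 2 of the highest mean level, Pcdhb16 and Pcdhb17, had 0.37 and 0.46 in XY-KO against XY-WT. Pcdhb21 and its neighbour Pcdhb22 overlap by 455 exon nt.

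The level of XY-KO was the highest of the 3 groups for 15 of the 18 beta genes (83.3%), and for 29.5% of the 7136 genes within their range of mean levels. Their median log2 fold change was 0.36 in XY-KO against XY-WT, where that of the 7136 genes was 0.00, and -0.16 in XX-WT against XY-WT. Once the GC and length trend was taken out, the medians in XY-KO against XY-WT were 0.33 for the beta genes and 0.11 for the 7069 of the others with a transcript length, and XY-KO had the highest level for 16 of the 18 and for 37.5% of the 7069. The beta genes are neighbours of similar sequence, so these values are not independent of each other. Pcdhb5, Pcdhb7 and Pcdhb8 were the 3 exceptions, with -0.47, -0.01 and -0.36 in XY-KO against XY-WT. Along the cluster, the 7 genes from Pcdhb16 to Pcdhb22 had a median mean level of 2.68, and the 11 from Pcdhb2 to Pcdhb15 one of 0.24. The median change in XY-KO against XY-WT was 0.46 in the former stretch and 0.33 in the latter, with median SEs of 0.244 and 0.418, so the precision was lower where the level was lower.

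**Figure D3:**
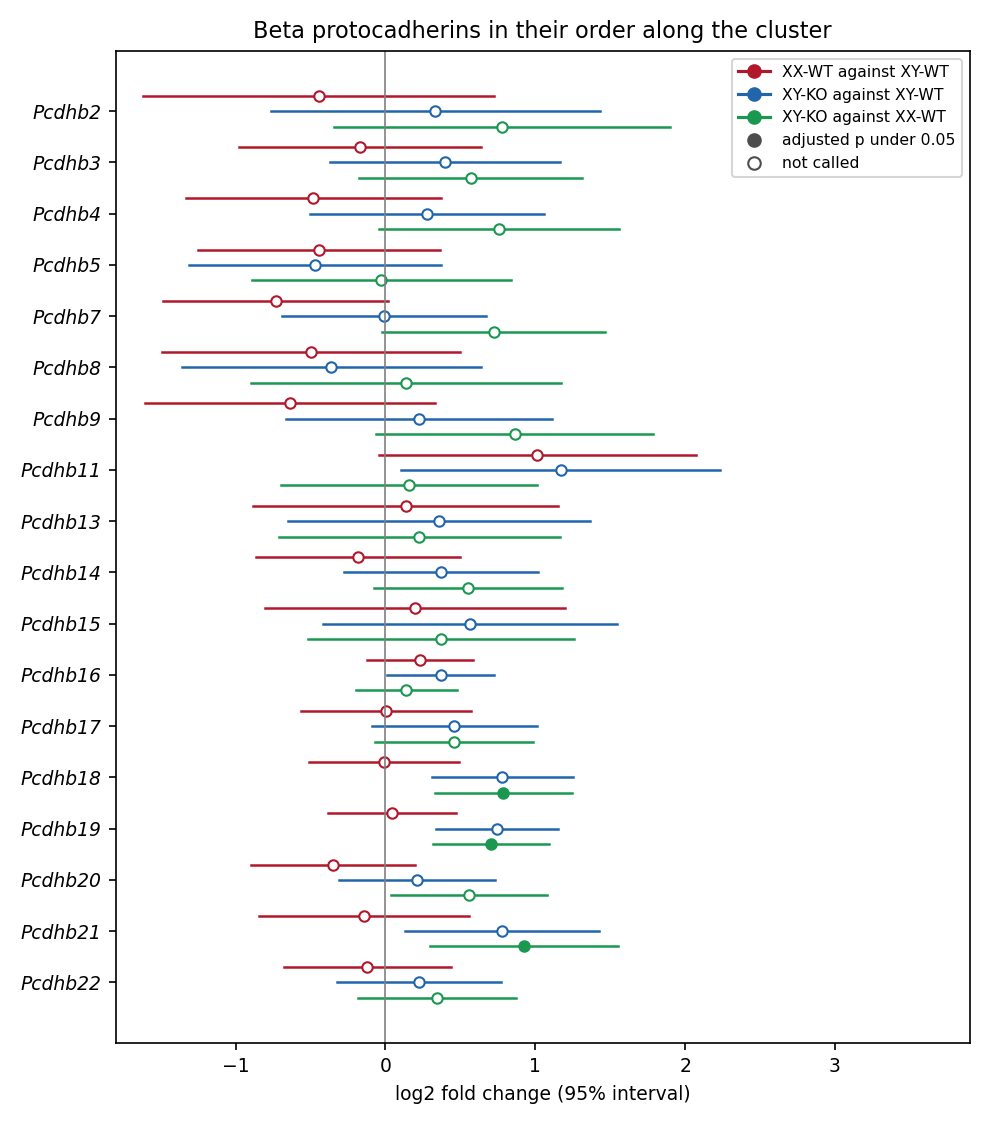
Log2 fold changes (horizontal axis) of the 18 measured beta protocadherins in their order along the cluster (vertical axis) for XX-WT against XY-WT (red), XY-KO against XY-WT (blue) and XY-KO against XX-WT (green), with 95% intervals and filled points for an adjusted p under 0.05. The 3 filled points are Pcdhb18, Pcdhb19 and Pcdhb21 in XY-KO against XX-WT, and 15 of the 18 blue points lie above 0 (16 once the GC and length trend is taken out).

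The Cdh genes and the protocadherins were set side by side in each comparison. In XX-WT against XY-WT, 6 of 15 Cdh genes were called, 4 higher and 2 lower, and 6 of 32 protocadherins, 1 higher and 5 lower. These are 40.0% and 18.8%, where 23.3% of all genes were called. Of the 13 type I and type II cadherins alone, 4 were higher and 1 lower (38.5%). Their median was 0.29, where those of the Cdh genes and the protocadherins were -0.08 and -0.13. Of the protocadherins outside the gene clusters 5 of 12 were called (41.7%). Of those in the clusters 1 of 20 was (5%), and 18 of these 20 are beta genes. The median size of the log2 fold change, sign left out, was 0.92 for the Cdh genes, 0.40 for the protocadherins and 0.32 for all genes. The median SEs were 0.312, 0.325 and 0.202 in the same order, and a size without sign grows with the SE. For the 7136 genes within the range of mean levels of the beta genes, the median size was 0.42. In XY-KO against XY-WT, no Cdh gene (4 at an unadjusted p under 0.05) and 1 protocadherin (8 at an unadjusted p under 0.05) passed, where 2.27% of all genes did. The medians were 0.21 and 0.30, and that of all genes was -0.01. In XY-KO against XX-WT, 2 Cdh genes were higher and 3 lower, and 7 protocadherins were higher and 1 lower, which are 33.3% and 25.0%, where 18.3% of all genes were called. The medians were 0.29 and 0.41. The 13 type I and type II cadherins had the other sign, with 1 higher and 3 lower and a median of -0.27. Here 5 of the 12 protocadherins outside the clusters and 3 of the 20 in them were called. The comparisons share groups, so their counts are not independent of each other. Tested were 15 of 22 Cdh genes, 32 of 70 protocadherins and 4 of 6 FAT and Dachsous genes. A gene had to pass the authors' filter on low values to be tested, but other reasons for absence are possible. A gene low in 1 group may have passed it through another group, so the shares called may depend on that filter. Of the 14 alpha and 22 gamma genes 1 entry each was tested, and whether it stands for its whole cluster is not known. The absence of the others is therefore not shown to reflect low values.

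By group, XY-KO had the highest level for 21 of the 32 protocadherins, 5 of the 15 Cdh genes and 1 of the 4 FAT and Dachsous genes, and for 28.1% of all genes. Once the GC and length trend was taken out, these were 22, 5 and 0, and 32.9% of all genes. As deposited, the 21 protocadherins were 16 of the 20 in the gene clusters and 5 of the 12 outside them. The ovary had the highest level for 5 of the 9 type II cadherins and for none of the 18 beta genes. It had the lowest level for 28 of the 51 members, where it did for 36.7% of all genes. Per kilobase of transcript, Cdh11, Pcdh18, Pcdhgc4, Fat1 and Cdh2 had the highest mean levels, at 5.27, 4.79, 4.53, 4.18 and 3.49 on the log2 scale, and Cdh12 the lowest at -3.87.

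**Figure D4:**
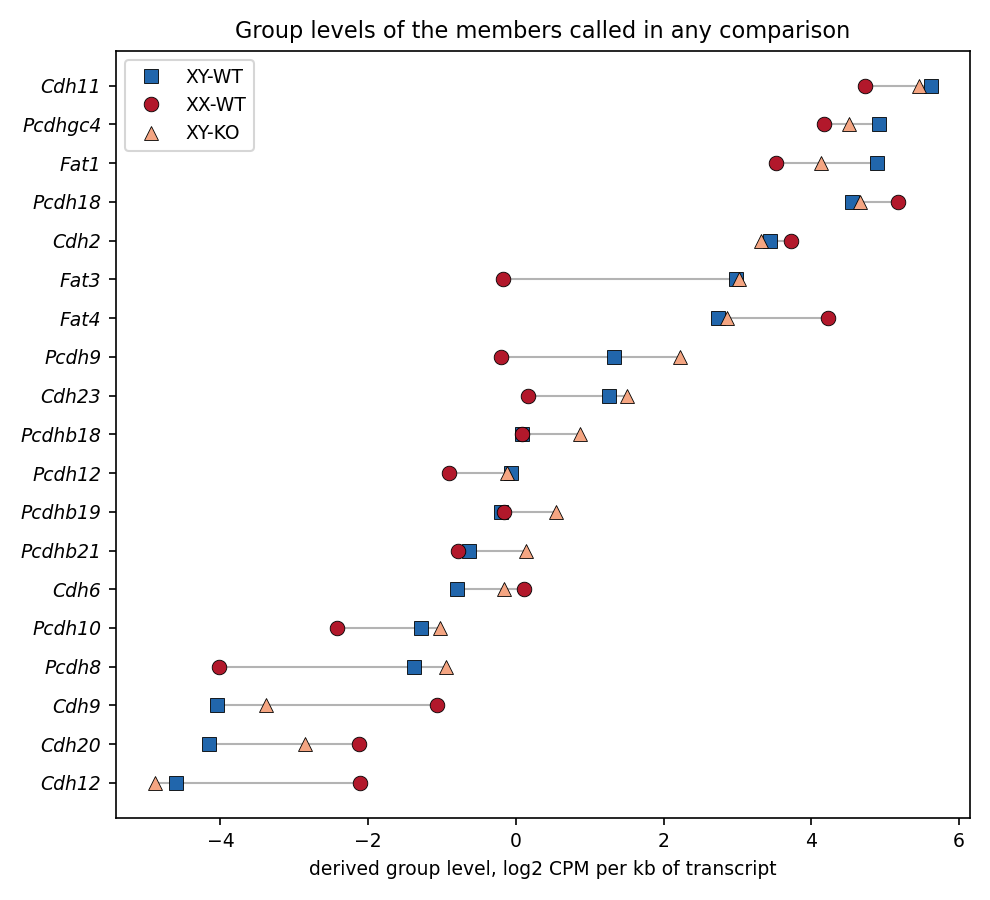
Derived level of each group (horizontal axis, log2 CPM per kilobase of the longest transcript) for the 19 members called in at least 1 comparison (vertical axis), with squares for XY-WT, circles for XX-WT and triangles for XY-KO. Values of single samples were not used here, so no error is drawn. The ovary lies far below both testes for Fat3 and Pcdh8 and far above them for Cdh9 and Cdh12. XY-KO lies above both control groups for Cdh23, Fat3, Pcdh8, Pcdh9, Pcdh10, Pcdhb18, Pcdhb19 and Pcdhb21. Of these, only Pcdh9 was called higher in XY-KO than in XY-WT.

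Other genes of the cadherin superfamily were measured for 11 of 20 listed, and 4 were higher and 3 lower in XX-WT than in XY-WT. These are 63.6% of the 11, where 23.3% of all genes were called. Dsc2, a desmosomal cadherin, was the 1 gene that passed in XY-KO against XY-WT, with levels of 2.45 in XY-WT, 3.61 in XY-KO and 4.13 in XX-WT. It was higher in XX-WT (1.67, SE 0.173, adjusted p 3.76e-06) and in XY-KO (1.15, SE 0.18, adjusted p 0.00213), so that XY-KO lay between the controls. Clstn2, a calsyntenin, was higher in XX-WT (1.27, adjusted p 1.36e-04), as was Celsr2, a planar polarity cadherin (0.95, adjusted p 0.00424). Ret, a receptor kinase with cadherin-like repeats, was higher in XX-WT (2.35, adjusted p 3.12e-04), and its -2.47 in XY-KO against XY-WT did not pass (adjusted p 0.0796). Cdhr5 and Clstn3 were lower in XX-WT (-3.32 and -1.27, adjusted p 0.00193 and 0.0101).

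Genes known to act on cadherins were taken from 3 further lists. The first held 6 measured cadherin repressors, which act in the epithelial-mesenchymal transition and shut off Cdh1 in other tissues. Of these, Zeb2 and Twist1 were lower in XX-WT than in XY-WT (-1.29 and -1.53, adjusted p 8.36e-07 and 5.51e-04). None of the 6 passed in XY-KO against XY-WT (2 at an unadjusted p under 0.05). Zeb2 had levels of 8.44 in XY-WT, 8.85 in XY-KO and 7.15 in XX-WT. Of 7 genes that cleave or process cadherins, Pcsk5 and Ncstn were lower in XX-WT (-1.79 and -0.53, adjusted p 8.80e-08 and 0.00445), and none passed in XY-KO against XY-WT (1 at an unadjusted p under 0.05). Of 12 genes known to regulate the protocadherin clusters, among them CTCF and the cohesin subunits, Smc3 was higher in XX-WT (0.62, adjusted p 0.0107) and Rad21 lower (-0.40, adjusted p 0.0308). None of the 12 passed in XY-KO against XY-WT (1 at an unadjusted p under 0.05), where their median was 0.01. In XX-WT against XY-WT the called genes were 33.3%, 28.6% and 16.7% of these 3 lists, where 23.3% of all genes were called.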

How the data were processed

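RNA of 9 samples in 3 groups was sequenced. Per the submitters' processing notes, the tools were limma 3.24.0, HTSeq 0.6.1p1, TopHat2 2.0.8 and Trimmomatic 0.30 and the build was GRCm38, with no role or order given. Per the file headers, the deposited tables hold, for each of 3 pairwise comparisons, the log2 fold change, the mean log2 expression, limma's t and B as scores, and the p-value and adjusted p-value of 15300 genes. The authors' filter on low values and offset before logs are not given in the sources used here.

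The members and lists were chosen with earlier results of these data known. Of 15300 Ensembl IDs, 15192 matched a symbol in GENCODE M21. The SE is the fold change divided by t, and 95% intervals use the 15.27 degrees of freedom implied by t and p. Group levels assume that the deposited mean weights the samples equally. Recomputed adjusted p-values differed from the deposited ones by at most 0.000769 of their value, and the 3 fold changes of a gene added up within 0.005. Since the tables give comparisons only, no count model was fitted and no value of a single sample, depth or outlier was examined. The result of the Schwann and neural crest marker list is not reported here.

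Every member called in at least 1 comparison and every measured classical, FAT and Dachsous cadherin was named, with the 2 uncalled members of highest mean in other classes. Of lists, the called genes of smallest adjusted p were named. Further members were named after their values were seen, as was the grouping by chromosome. Alternatives were an adjusted p under 0.01, a fold limit of 2, adjustment over the 3 comparisons together, Bonferroni adjustment, only genes whose mean expression reached its median over genes, 3.19, and removal of a robust cubic trend on transcript GC content and length. The scripts were tested on simulated data. Computations used pandas 2.3.3, numpy 2.4.6, statsmodels 0.14.6, scipy 1.17.1 and matplotlib 3.10.9 in Python 3.11.15.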

Additional observations from a re-analysis of the deposited data

How the results depend on the processing

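The counts of called genes depended on the threshold, and no called member changed direction under the settings run. In XX-WT against XY-WT the 6 Cdh genes called became 0 with Bonferroni adjustment and 2 when genes under the median of mean expression were left out. Of the 6, Cdh6 and Cdh20 did not pass the limit of 0.01 (adjusted p 0.014 and 0.0112). Cdh6 and Cdh11 did not reach 2-fold (log2 fold changes 0.92 and -0.90). The 6 protocadherins became 3 with a limit of 0.01 on the adjusted p, 3 where 2-fold was required, 1 with Bonferroni adjustment and 3 without genes under the median. In XY-KO against XY-WT the 1 protocadherin became 0 with the limit of 0.01, 0 where 2-fold was required, 0 with Bonferroni adjustment and 4 when p-values were adjusted over the 3 comparisons together, and the Cdh genes stayed at 0 in every setting run. In XY-KO against XX-WT the 5 Cdh genes became 3, 3, 0 and 3, and the 8 protocadherins became 3, 3, 1 and 2, under the same 4 settings as the protocadherins of the ovary and testis, in that order. Lower counts follow from a stricter limit or fewer genes tested, and the rise to 4 follows from pooling the p-values of the 3 comparisons. The 2 comparisons with the ovary had 3560 and 2796 calls and XY-KO against XY-WT had 347, so pooling loosens the limit for the latter. Removing the GC and length trend left 142 tests of single members with their direction and side of the threshold, moved 1, Pcdh17 in XX-WT against XY-WT, past it, and turned the sign of 10 that passed in neither fit. In XX-WT against XY-WT these came to 0.0213 for Cdh3, -0.0229 for Pcdhb17, -0.0465 for Pcdhb19 and -0.0321 for Pcdh15. In XY-KO against XY-WT they came to -0.126 for Fat3, 0.0143 for Pcdhb7, 0.118 for Pcdh1, -0.0623 for Pcdh7 and 0.0323 for Pcdh12, and in XY-KO against XX-WT to -0.0152 for Pcdh11x. The cause was not tested.

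No paired analysis was possible because the tables give comparisons between groups and no value of a single sample. For the same reason leaving out each replicate was not run. With each member taken at its largest SE over the 3 comparisons, the widest were those of Cdh7, Cdh8, Cdh9 and Cdh12. Pcdh8 came next (0.598 in XX-WT against XY-WT). The levels of these genes lie near or under 1 CPM, and how far depth sets their SEs was not tested.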
